A study of Mus musculus with 155 samples.

Results

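Celf3 and Elavl4, a pair of neuronal RNA-binding protein genes, were followed cell by cell in single sorted mouse brain cells, whose mRNA was copied over its full length and sequenced (SMART-Seq2). They are 2 of the 3422 genes in the deposited table and were selected on their measured level, which was higher in NBL than in NB cells, so that difference is given below as a description and not as a finding. All cells came from mice 8 to 10 weeks old, out of the subventricular zone, where new neurons form beside the lateral ventricle, and the overlying white matter of the corpus callosum. OligNBL (40 cells) were positive for both reporters, Gad67-GFP and Olig2-Tomato, and came from a cross of the strains CB6-Tg(Gad1-EGFP)G42Zjh/J and Olig2-tdTomato TH39Gsat/Mmcd. NBL (27 cells) were sorted on GFP from the Gad67-GFP strain, and OL (22 cells) on Tomato from the Olig2-Tomato strain. The labels place these 3 populations in mice demyelinated with LPC, a lipid that strips myelin, and taken 6 days later. O (29 cells, Tomato) and NB (37 cells, GFP) came from healthy mice of those same strains. The titles of all 40 OligNBL cells carry the mark "cont" although their other labels say demyelinated; the lesion label is used here. The reporters are transgenes driven by sequence of Gad1, which encodes Gad67, and of Olig2, so a gate holds any cell in which that transgene is on, and strain differs with the gate.

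CELF proteins bind GU-rich sequence in pre-mRNA and mRNA and regulate alternative splicing; Celf3 is among the members found mainly in neural tissue. Elavl4, also called HuD, belongs with Elavl2 and Elavl3 to the neuronal ELAV-like proteins, which bind AU-rich elements in 3' untranslated regions, stabilise mRNAs and are used as early markers of neuronal differentiation; Elavl1 (HuR) is the ubiquitous member. Neuroblasts of the adult subventricular zone are migrating young neurons that make GABAergic interneurons of the olfactory bulb, and both genes are known from neurons rather than from myelinating cells. On GRCm38 with GENCODE vM21, Celf3 lies on the plus strand of chromosome 3 from 94478295 to 94492198, and Elavl4 on the minus strand of chromosome 4 from 110203722 to 110351909. The annotation lists 15 transcripts for Celf3 and 12 for Elavl4, and the table gives 1 value per gene, so isoforms were not analysed here.

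The deposited values behaved as a quantile-normalized signal: the 8 highest values were the same in every cell and column totals differed by 0.101%. A value therefore stands for the rank a gene takes in its cell. The median value over cells was 7493 at rank 50, 49.2 at rank 250, 10.8 at rank 500 and 1.64 at rank 1000. Depth cannot be read from such values, and they are not corrected for transcript length, so levels are compared between cells and not between genes. Level below means log2(value + 1) averaged over the cells of a population, with the SD among them. A gene is called present in a cell when it is among that cell's 500 highest genes; 2 NB cells with fewer detected genes have no presence call. The labels name no mouse for any cell (5 mice per condition), so each population counts as 1 sample, the populations were described without a test, and no difference has a replicate check. Cells of the same population are not independent, so the exact Clopper-Pearson 95% intervals cover counting error only. Beside a count of 0 the limit given is 3 cells of the total.

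Mature oligodendrocyte markers set OL and O apart from the 3 populations with GFP. Mature oligodendrocyte genes (13 of 16 listed were measured) summed to a median level of 0.86 in OligNBL, 0.84 in NBL, 117 in OL, 86.0 in O and 1.60 in NB. Mal and Opalin were not detected in any OligNBL, NBL or NB cell. Neuroblast genes (21 of 24) summed to 77 in OligNBL, 69.7 in NBL, 35.1 in OL, 27 in O and 67.8 in NB. Like sums in NBL and NB came from unlike genes. Sp8 was present in 24 of 35 NB and 5 of 27 NBL cells, and Cd24a in 19 of 35 and 2 of 27. In reverse, Tubb3 was present in 6 of 35 NB and 16 of 27 NBL cells, and Nrep in 2 of 35 and 22 of 27. Oligodendrocyte progenitor genes (6 of 10) summed to 11.4 in OligNBL, 2.72 in NBL, 4.35 in OL, 6.72 in O and 0 in NB. Other listed markers did not follow the gates. Of the mature neuron genes (2 of 12), Map2 was present in 27 of 35 NB and 1 of 27 NBL cells. Snap25 was present in 18 of 29 O, 0 of 27 NBL and 0 of 35 NB cells. Prom1, from the astrocyte and neural stem cell list, was present in 16 of 29 O cells. The endothelial gene Pecam1 was present in 38 of 40 OligNBL, 27 of 27 NBL, 21 of 22 OL, 29 of 29 O and 32 of 35 NB cells. EGFP was present in 12 of 40 OligNBL, 7 of 27 NBL, 2 of 22 OL, 1 of 29 O and 26 of 35 NB cells. Each title holds a cell number and, in brackets, a title number, and the sources used here do not say what the title number means. Cells with neighboring title numbers were alike, so each population was also read in blocks of 8 title numbers. These blocks are a division by number and not a batch named by the labels.

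Celf3 was present in most NBL cells, in many OligNBL cells and in almost none of the others. In NBL its values ran from 0 through a median of 926 to 519600, where it was the gene of rank 3 in its cell, and it was listed at 0 in 2 of 27 cells. In OligNBL values ran from 0 through a median of 5.96 to 10502, with 8 of 40 cells at 0. The gene was listed at 0 in 18 of 22 OL cells, with a highest value of 25, in 26 of 29 O cells, with a highest value of 4.52, and in 32 of 37 NB cells. The highest NB value, 8926, belonged to 1 cell at title number 12, and the next, 300.1, to a cell with only 353 detected genes. NBL cells were thus mostly high, OligNBL cells spread mostly over low and middle values, and the ranges of all 5 populations overlapped at 0. In 2 OligNBL cells, with values of 10502 and 1706, Celf3 was among the 100 highest genes. Celf3 was present in 19 of 40 OligNBL cells (47.5%, interval 31.5% to 63.9%), 23 of 27 NBL cells (85.2%, 66.3% to 95.8%), 1 of 22 OL cells, 0 of 29 O cells, a count that allows up to 10.3%, and 1 of 35 NB cells (2.86%, 0.072% to 14.9%).

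Elavl4 was present in fewer cells, and high values were found in NBL alone, where it was either near the top of the cell or low. Its NBL values ran from 0 through a median of 3.89 to 519600, and 10 of 27 cells were listed at 0. In OligNBL the highest value was 37.6 and 25 of 40 cells were at 0. The highest value was 6.18 in OL, where 20 of 22 cells were at 0. It was 14.5 in O, where 21 of 29 cells were at 0, and 6.57 in NB, where 34 of 37 were. No cell outside NBL came near the upper group of NBL values. Presence was 4 of 40 OligNBL cells (10%, interval 2.79% to 23.7%), 10 of 27 NBL cells (37%, 19.4% to 57.6%), 0 of 22 OL cells (up to 13.6%), 2 of 29 O cells (6.90%, 0.85% to 22.8%) and 0 of 35 NB cells (up to 8.57%).

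**Figure D1:**
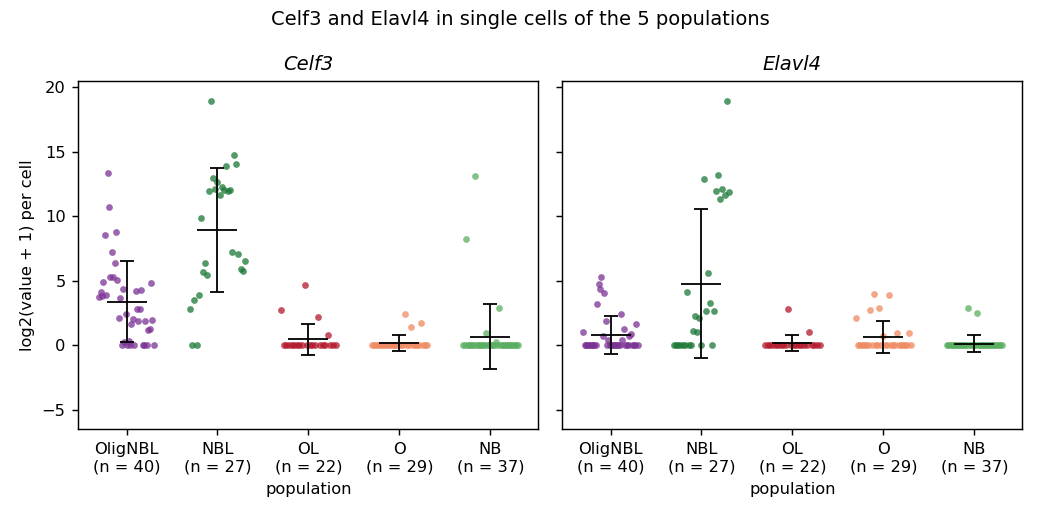
Level of Celf3 (left) and Elavl4 (right) in each cell, as log2(value + 1), by population; points are cells in order of title number, the black bar is the mean and the whiskers are 1 SD between cells. Celf3 averaged 8.96 in NBL and 0.69 in NB, and Elavl4 in NBL split into cells below 6 and cells above 11.

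By level, the order of the populations for Celf3 was NBL (8.96 ± 4.78), OligNBL (3.38 ± 3.14), NB (0.69 ± 2.54), OL (0.48 ± 1.20) and O (0.20 ± 0.60). The place of NB rests on its 2 highest cells: without them its level was 0.12, below OL and O (chosen after seeing the data), and the difference of O from NB was 0.08 in place of -0.49. The step between NBL and OligNBL was larger than the SD of either population, the step from OligNBL to NB (2.69) was smaller than the SD in OligNBL, and the steps among NB, OL and O were smaller than either SD. For Elavl4 the order was NBL (4.78 ± 5.77), OligNBL (0.83 ± 1.48), O (0.63 ± 1.23), OL (0.18 ± 0.63) and NB (0.15 ± 0.63). Here no neighbouring pair differed by more than both SDs.

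The NBL cells were not alike in which of the genes they carried. In the 5 cells at title numbers 1 to 6, Celf3 was low, with values of 6.25, 0, 10.5, 0 and 14.4, and Elavl4 was listed at 0 in all of them. In the 8 cells at title numbers 9 to 16, Celf3 was present in 8 of 8 with values of 43.3 to 519600 (median 2465), whereas Elavl4 had values of 0 to 16.9. In the 7 cells at 18 to 24, Celf3 was present in 7 of 7 with its tightest spread, 3271 to 15253 (median 4300). Elavl4 was mixed there, at 0, 7695, 5.38, 47.3, 8.92, 0 and 5.50. In the 7 cells at 25 to 32, Elavl4 was present in 7 of 7 with values of 2602 to 519600 (median 3922), and Celf3 in 7 of 7 with values of 52.6 to 28011 (median 137.5). Celf3 thus held a high rank in 22 of the 22 NBL cells numbered 9 or above, and Elavl4 was among the 100 highest genes of every cell of the last block and of 1 cell elsewhere in NBL. Over the other 20 NBL cells the median Elavl4 value was 0.543.

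Other measures of the NBL cells moved with these blocks, and their part in the pattern was not tested. The median number of detected genes was 776 at title numbers 1 to 6, where Celf3 was low, against 1128, 1161 and 1309 in the later blocks. The 7 cells at 25 to 32 were alike, with a mean correlation of 0.71 between their levels over all genes, against 0.27 with the other NBL cells. In them 284 genes were present in every cell. Those of the 284 that were present in at most 3 of the other 20 NBL cells, Elavl4 included, made up 4.00% of all genes in the table. The share of variance that lay between blocks was 79.7% for Elavl4 and 56.6% for Celf3, and of 2283 genes detected in at least 5 NBL cells 2.72% reached the Elavl4 share and 13.2% the Celf3 share (median 19.1%).

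Markers of cell state also differed between these blocks. The summed level of progenitor and S phase genes (Top2a, Rrm2, Pcna, Mcm5 and Egfr, 5 of 12 listed) had a median of 3.59 at title numbers 1 to 6, 9.30 at 9 to 16, 11.2 at 18 to 24 and 0.65 at 25 to 32. Top2a, the topoisomerase of dividing cells, was present in 0 of 5, 4 of 8, 7 of 7 and 0 of 7 cells of the 4 blocks. Celf3 was highest at 18 to 24 and Elavl4 at 25 to 32. The other genes of the list did not share the Top2a order. Rrm2 had mean levels of 3.94, 3.19, 1.46 and 0.21. Pcna was present in 0 of 5, 1 of 8, 1 of 7 and 0 of 7 cells, and Mcm5 in 0 of 27 NBL cells. In OligNBL Top2a was present in 0 of 40 cells. Egfr was at 0 in every NBL cell. The summed neuroblast level had medians of 64.9, 69.4, 66.3 and 90.6 over the same 4 blocks. Among neuroblast genes, named after their values were seen, the cells at 25 to 32 had Dpysl3, a protein of growing axons, at a mean level of 13.89, neuronal tubulin Tubb3 at 12.03, the microtubule protein Map1b at 12.30 and the interneuron transcription factor Sp9 at 6.01. In the other 3 blocks those levels were 5.11 to 8.86 for Dpysl3, 1.40 to 4.16 for Tubb3, 5.60 to 6.47 for Map1b and 1.25 to 1.71 for Sp9. Other neuroblast genes had other orders over the 4 blocks. The tubulin regulator Stmn1 was at 15.72, 5.95, 3.40 and 2.63, Stmn4 at 6.36, 5.05, 1.84 and 1.14, Nrep at 1.21, 12.28, 11.61 and 4.37, and the transcription factor Sox11 at 2.38, 4.06, 4.77 and 1.14. Dcx, the classical neuroblast marker, was present in 5 of 5, 7 of 8, 4 of 7 and 7 of 7 cells of the 4 blocks. Mature oligodendrocyte genes were near 0 throughout NBL, as given above.

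**Figure D2:**
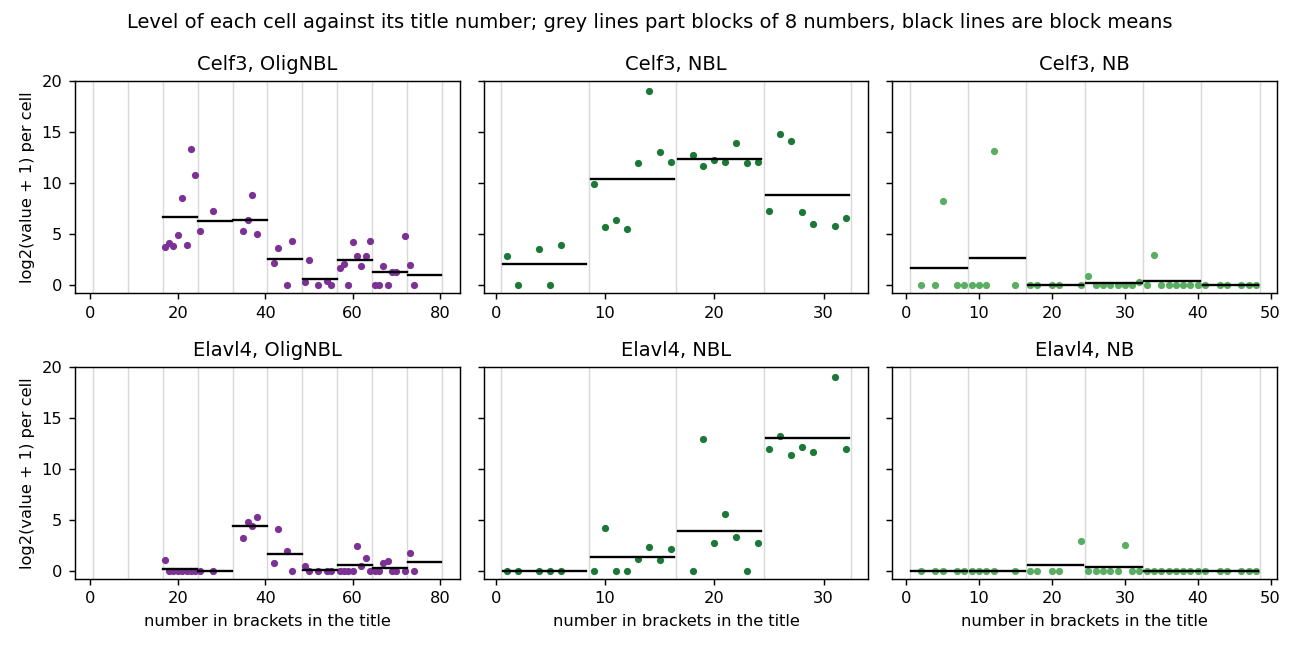
Level of Celf3 (top) and Elavl4 (bottom) as log2(value + 1) against the title number of each cell in OligNBL, NBL and NB; grey lines part blocks of 8 title numbers and black lines are block means. In NBL the Elavl4 block means were 0, 1.34, 3.88 and 13.02 and those of Celf3 2.06, 10.43, 12.38 and 8.78, and in NB only 2 cells had a Celf3 level above 8.

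OligNBL cells had a similar split by title number, mostly at lower ranks. Celf3 was present in 8 of 8 cells at title numbers 17 to 24, 2 of 2 at 25 to 28 and 4 of 4 at 35 to 38, with values of 12.5 to 10502. It was present in 2 of 4 cells at 42 to 46, 0 of 5 at 49 to 55, 2 of 8 at 57 to 64, 1 of 7 at 65 to 72 and 0 of 2 at 73 to 74, where no value exceeded 27.5. The cells thus fell into an early range in which every cell carried Celf3 and a later range in which few did. Elavl4 was present in 3 of 4 cells at 35 to 38, with values of 8.39, 26.1, 19.4 and 37.6, and in 1 of the other 36 OligNBL cells, with 25 of the 36 at 0. The share of variance between blocks was 58.9% for Celf3 and 75.8% for Elavl4; of 2840 genes 6.44% and 1.23% reached those shares (median 30.7%). In a few OligNBL cells cell number and title number part. The cells at title numbers 35 and 37 have cell numbers 10 and 11 and Celf3 values of 37.6 and 442. Their neighbor at 36, whose cell number is far later, has a value of 84. The cell at 42 (cell number 14) has 3.37, against 11.6, 0 and 19.4 at 43, 45 and 46. The cell at 49 (cell number 16) has 0.19, against 4.56 at 50 and 0 at 52.

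Genes detected and some progenitor and neuroblast markers moved with the Celf3 blocks of OligNBL, and their part was not tested. Median genes detected were 1634, 1516.5 and 1490.5 in the 3 blocks where every cell carried Celf3, against 1189 to 1430.5 in the others. The summed oligodendrocyte progenitor level had medians of 14.6, 36.6 and 44.6 in those 3 blocks, against 5.44 to 21.7 in the others, so the ranges of block medians overlapped. Pdgfra, the growth factor receptor of oligodendrocyte progenitors, was present in 8 of 8, 2 of 2 and 4 of 4 of those cells and in 3 of the other 26. Cspg4 (NG2) was present in 1 of 8, 0 of 2 and 4 of 4 of them, and in 3 of 4 at 42 to 46, 1 of 5 at 49 to 55, 2 of 8 at 57 to 64, 0 of 7 at 65 to 72 and 1 of 2 at 73 to 74. Ptprz1, a receptor phosphatase of progenitors, was present in 5 of 8, 2 of 2 and 1 of 4 of those cells, and in 5 of 7 at 65 to 72 and 2 of 2 at 73 to 74. Cspg4 and Ptprz1 thus did not follow the Celf3 blocks. Lhfpl3 was present in 6 of 8, 2 of 2 and 4 of 4 cells of those 3 blocks. In the later blocks it was present in 0 of 4, 1 of 5, 1 of 8, 0 of 7 and 1 of 2. Olig1 was present in 3 of 40 OligNBL cells and Sox10 in 2 of 40. Pcna, from the S phase list, was present in 8 of 8 cells at 17 to 24, 2 of 2 at 25 to 28 and 0 of 4 at 35 to 38. Every cell of those 3 blocks thus carried both Celf3 and Pdgfra. Map1b and Tubb3 were also present in each of them. How many of all genes were present in every one of these cells was not counted. The neuroblast sum showed no such split, with medians of 89.9, 72.5 and 70.1 in those blocks and 68.8 to 80.8 elsewhere. Single neuroblast genes, named after their values were seen, did differ. Marcksl1 had mean levels of 10.24, 10.08 and 5.86 in those blocks and 2.32 to 4.14 elsewhere. Gad2 had 6.10, 5.38 and 3.28 there and 0 to 1.48 elsewhere. Several went the other way or were mixed. Stmn4 was at 6.59, 3.90 and 2.08 there and 6.91 to 9.92 elsewhere. Gad1 was at 4.87, 1.69 and 1.62 there and 3.86 to 13.03 elsewhere. Dcx was at 0.60, 0.62 and 3.97 there, 12.30 at 42 to 46, 10.54 at 49 to 55 and 0 to 1.57 in the rest. Cd24a was at 0.78, 0 and 2.91 there, 8.79 at 49 to 55, 7.77 at 57 to 64 and 0.30 to 2.28 in the rest.

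In NBL and OligNBL every cell with Elavl4 among its 500 highest genes had Celf3 there too. Celf3 was common where Elavl4 was found. It was present in 23 of 27 NBL cells and in 4 of 4 OligNBL cells at title numbers 35 to 38, which held 3 of the 4 OligNBL cells with Elavl4. Counting any detection, 2 OligNBL cells and 0 NBL cells had Elavl4 without Celf3. In NBL 10 cells had both genes, 13 had Celf3 alone, 0 had Elavl4 alone and 4 had neither. In OligNBL 4 cells had both, 15 Celf3 alone, 0 Elavl4 alone and 21 neither. In O the 2 cells with Elavl4 did not have Celf3 among their 500 highest genes, and the single Celf3 cells of OL and NB did not have Elavl4 there. In OligNBL and NBL the levels of the genes were nearly unrelated. Pearson's r between them was 0.20 over the 40 OligNBL cells and 0.11 over the 27 NBL cells, and within blocks it was -0.03 in OligNBL and -0.07 in NBL. It was 0.72 in OL, where both genes were detected in 1 cell, 0.29 in O and -0.06 in NB. Cells of a block share their neighbors' profile, so these r values are descriptions.

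**Figure D3:**
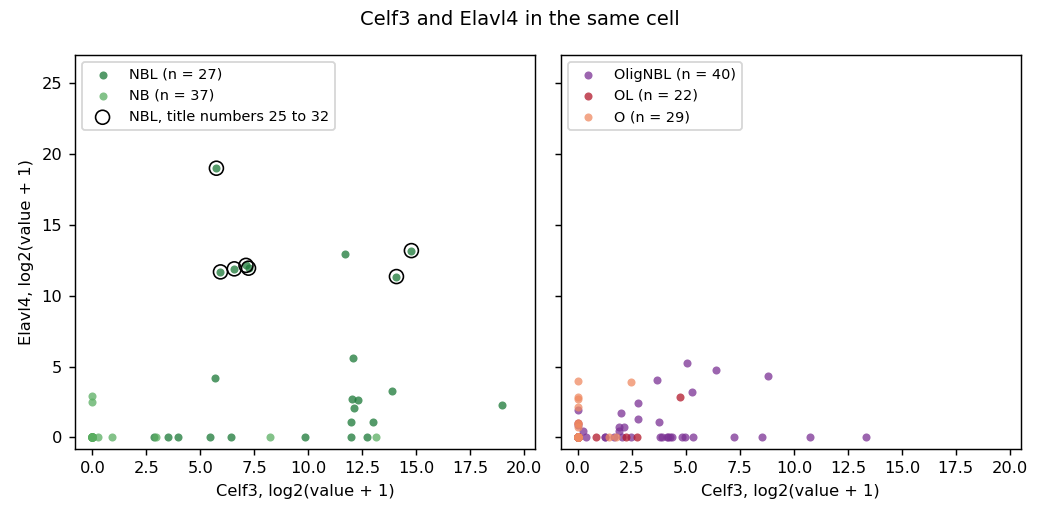
Elavl4 against Celf3 in the same cell, both as log2(value + 1), for NBL and NB (left) and OligNBL, OL and O (right); open circles mark the 7 NBL cells at title numbers 25 to 32. The NBL cells with high Elavl4 had Celf3 values of 52.6 to 28011, and r was 0.11 over the 27 NBL cells.

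The contrast of NBL with NB, on which the genes were picked, sets lesioned against healthy GFP cells of a shared strain. Celf3 averaged 8.96 ± 4.78 in NBL and 0.69 ± 2.54 in NB (SD, n = 27 and 37 cells), a difference of 8.27 that exceeded both SDs. Elavl4 averaged 4.78 ± 5.77 in NBL and 0.15 ± 0.63 in NB, a difference of 4.63 that was smaller than the SD in NBL. Of the 3422 genes, 17.4% were higher in NBL by at least 1 and 17.3% lower, and nothing is read from the members against that share. Celf3 was at place 6 from the top and Elavl4 at place 95. The genes next to Celf3 were Scaf11 (8.43) and Map7d1 (8.29) above it and Scrt1 (8.27), a neuronal transcriptional repressor, and Pde4dip (8.25) below it. Next to Elavl4 were Topors (4.69), Tmem50a (4.66), Scamp1 (4.62) and Pdcd6ip (4.60). Block means overlapped between the populations for both genes, from 2.06 to 12.38 in NBL and 0 to 2.62 in NB for Celf3, and from 0 to 13.02 in NBL and 0 to 0.58 in NB for Elavl4. Without the 7 NBL cells at title numbers 25 to 32 the Elavl4 difference was 1.75, against 4.63 with them, while that of Celf3 was 8.33. Leaving out any other block of either population gave 7.07 to 9.84 for Celf3 and 4.59 to 6.08 for Elavl4.

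OligNBL against NBL compares cells with both reporters with GFP cells of the same labelled lesion state, and it shares the NBL cells with the contrast that picked the genes. Celf3 averaged 3.38 ± 3.14 in OligNBL and 8.96 ± 4.78 in NBL, a difference of -5.58 that exceeded both SDs. Elavl4 averaged 0.83 ± 1.48 in OligNBL and 4.78 ± 5.77 in NBL, a difference of -3.95 that was within the NBL SD. Of all genes 20.3% were lower by at least 1 and 25.7% higher. Without the NBL cells at title numbers 25 to 32 the Elavl4 difference was -1.06 and the Celf3 difference -5.64.

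OligNBL against OL and OligNBL against NB gave Celf3 differences of 2.91 and 2.69 and Elavl4 differences of 0.66 and 0.68. OligNBL cells averaged 3.38 for Celf3, with OL at 0.48 and NB at 0.69. In OligNBL against OL 27.3% of genes were higher by at least 1 and 21.1% lower, and in OligNBL against NB 27.5% were higher and 18.9% lower. The Celf3 differences were smaller than the SD within OligNBL, and block means overlapped in each case. Between Tomato cells with and without the lesion both genes were low: Celf3 was at 0.48 in OL and 0.20 in O, and Elavl4 at 0.18 in OL and 0.63 in O, with differences of 0.28 and -0.46 inside the SDs. O against NB, healthy cells of the Tomato and GFP strains, gave -0.49 for Celf3 and 0.48 for Elavl4, also inside the SDs.

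Of 43 listed genes of RNA-binding proteins, some neuronal and some broadly expressed, 13 were in the table. Among them were Celf2, Celf3 and Celf6 of 6 Celf genes and Elavl1, Elavl3 and Elavl4 of 4 Elavl genes. Counts over this list are therefore not counts of neuronal genes. In NBL against NB 3 of 13 were higher by at least 1 and 0 lower; without Celf3 and Elavl4 this was 1 of 11, and the median difference of those 11 was 0.0030, against -0.0036 over all genes, of which 17.4% were higher and 17.3% lower. The remaining gene was Elavl3 (HuC), at 2.62 ± 3.73 in NBL and 0.63 ± 1.32 in NB, a difference of 1.99 that was within the NBL SD. Its NBL cells were mostly others than those of Elavl4. Elavl3 was present in 5 of 5 cells at title numbers 1 to 6, with values of 21.3 to 289151, and in 2 of 8, 0 of 7 and 2 of 7 cells of the later blocks. The NBL block at 1 to 6 thus carried Elavl3, with Celf3 in 1 of 5 cells and Elavl4 in 0. The middle blocks carried Celf3 in every cell, with Elavl4 in 1 of 8 and 2 of 7. The last block carried Celf3 and Elavl4 in every cell, with Elavl3 in 2 of 7. Celf2, a broadly expressed CELF protein, was present in 1 of 27 NBL cells, and Celf6, a brain CELF protein, in 0 of 27.

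In OligNBL against NBL 5 of 13 list genes were higher by at least 1 and 3 lower, with a median difference of 0.45 against 0.03 over all genes, of which 25.7% were higher and 20.3% lower. The higher genes were Celf2 (3.95 ± 4.1 in OligNBL and 0.52 ± 1.07 in NBL), the muscleblind splicing factor Mbnl1 (3.28 ± 3.34 in OligNBL and 0.34 ± 0.69 in NBL), Khdrbs3 (2.90 ± 3.85 in OligNBL and 0.01 ± 0.05 in NBL), Srrm4 (3.08 ± 3.48 in OligNBL and 0.71 ± 2.06 in NBL) and Celf6 (1.79 ± 2.87 in OligNBL and 0.09 ± 0.35 in NBL). Srrm4 promotes neuronal microexon splicing and Khdrbs3 is a splicing regulator of the STAR family. These differences ran from 1.70 to 3.44 and each was smaller than the SD within OligNBL. Lower, besides Celf3 and Elavl4, was the double-stranded RNA-binding protein gene Stau1, at 2.99 ± 3.93 in OligNBL and 5.44 ± 5.66 in NBL. The CELF genes were high in the same OligNBL cells: Celf2 was present in 8 of 8, 2 of 2 and 4 of 4 cells at title numbers 17 to 38, and Celf6 in 6 of 8, 2 of 2 and 2 of 4. Srrm4 had its highest block means, 6.47 and 6.03, at 49 to 55 and 57 to 64, where Celf3 was at 0.62 and 2.46. Khdrbs3 had 7.84 and 8.35 at 65 to 72 and 73 to 74, where Celf3 was at 1.32 and 0.99.

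**Figure D4:**
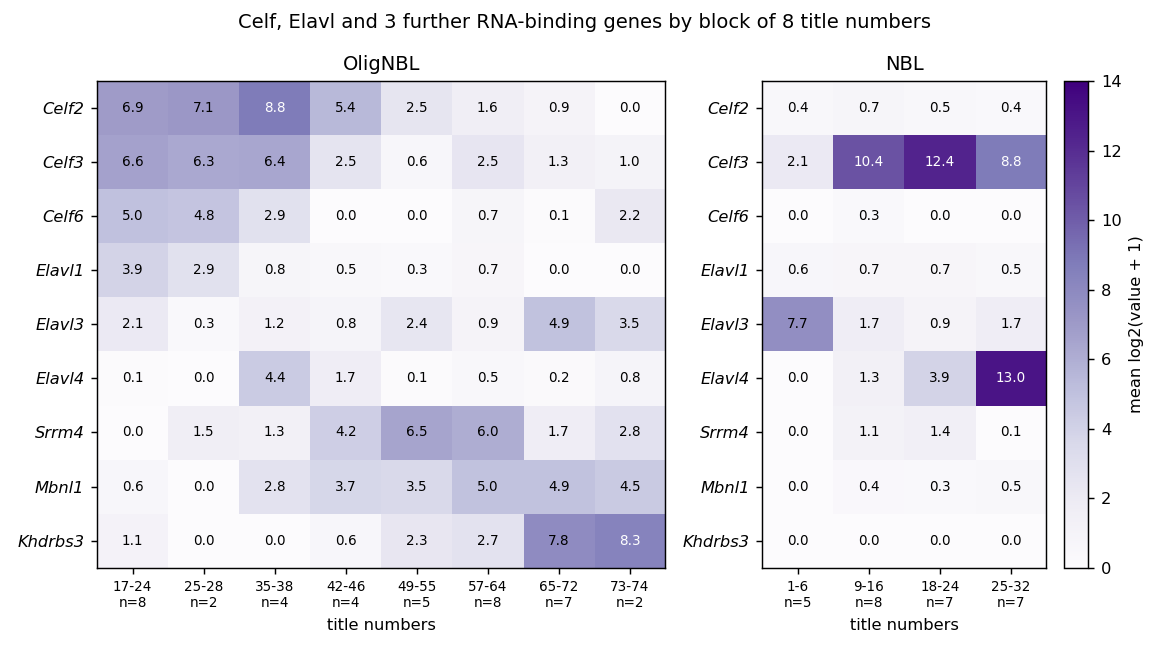
Mean level, as log2(value + 1), of the measured Celf and Elavl genes and of Srrm4, Mbnl1 and Khdrbs3 in blocks of 8 title numbers of OligNBL (left) and NBL (right); numbers in the cells are the means and n is cells per block. Celf2, Celf3 and Celf6 were highest in OligNBL at title numbers 17 to 38, and in NBL Elavl3 was highest in the first block and Elavl4 in the last.

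Against OL, 8 of 13 list genes were higher in OligNBL by at least 1 and 3 lower, with a median of 1.70 against 0.13 over all genes, of which 27.3% were higher and 21.1% lower. Against NB 8 were higher and 1 lower, with a median of 1.52 against 0.08 over all genes, of which 27.5% were higher and 18.9% lower. The genes lower than in OL were Fxr1, a relative of the fragile X protein, at 0.09 ± 0.30 in OligNBL and 5.45 ± 6.34 in OL, the neuronal polypyrimidine tract protein gene Ptbp2, at 0.90 ± 1.20 in OligNBL and 5.37 ± 5.56 in OL, and Igf2bp3, at 4.31 ± 2.84 in OligNBL and 5.52 ± 1.75 in OL. Igf2bp3 was present in 25 of 40 OligNBL, 21 of 27 NBL, 22 of 22 OL, 29 of 29 O and 26 of 35 NB cells. In OL against O 2 were higher and 2 lower, where 15.9% of all genes were higher and 15.7% lower. Ptbp2 was present in 12 of 22 OL and 0 of 29 O cells. In O against NB 2 were higher and 1 lower, where 19.4% of all genes were higher and 20.7% lower, with Fxr1 at 7.05 ± 5.76 in O and 0.26 ± 0.85 in NB. Within OL, Ptbp2 was present in 7 of 7 cells at title numbers 9 to 16, 3 of 8 at 17 to 24 and 2 of 7 at 25 to 32. Fxr1 was at 0 in all 7 OL cells of the first of these blocks and present in 5 of 8 and 5 of 7 of the others, and in 0 of 40 OligNBL cells. Of 14 mRNAs listed as bound or stabilised by the Elavl4 protein, only Mapt, which encodes tau, was in the table. It was at 2.93 ± 3.01 in OligNBL, 3.70 ± 2.23 in NBL, 0.73 ± 1.27 in OL, 1.06 ± 1.88 in O and 5.15 ± 3.37 in NB. Its NBL minus NB difference of -1.45 was inside both SDs, and 17.3% of all genes were lower there by at least 1. A link between Mapt and Elavl4 was not tested.

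**Figure D5:**
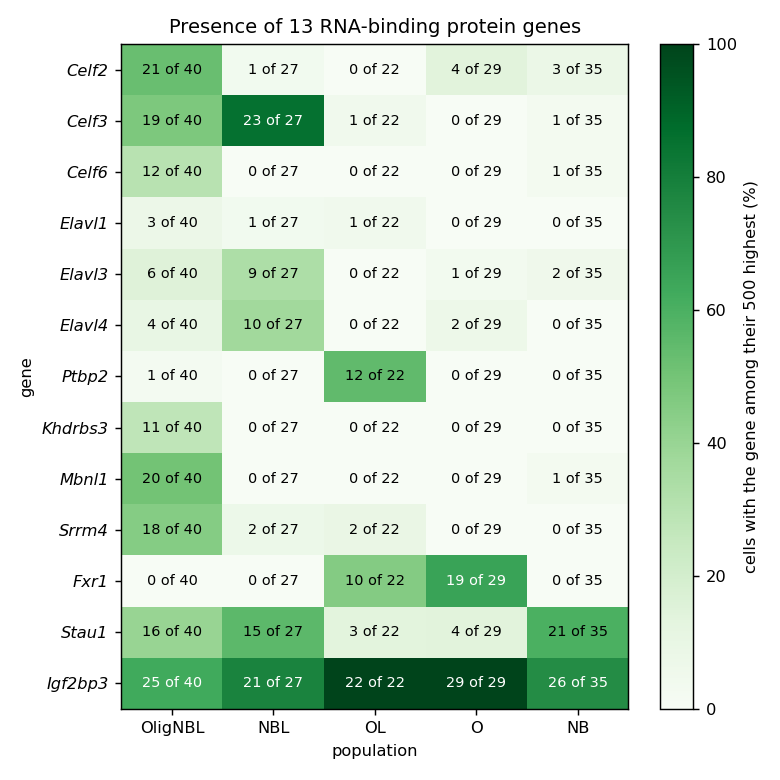
Share of cells of each population with each of the 13 measured RNA-binding protein genes among their 500 highest genes; the numbers are cells with the gene of cells with at least 500 detected genes. Celf3 was present in 23 of 27 NBL and 19 of 40 OligNBL cells, Ptbp2 in 12 of 22 OL cells and Fxr1 in 19 of 29 O cells.

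The genes whose levels were most like Celf3 over the cells of all 5 populations were Map7d1, a microtubule-associated protein gene (r = 0.82), Idh1, isocitrate dehydrogenase (0.79), the growth kinase gene Mtor (0.75), Fam92a (0.75) and Scg5, a neuroendocrine secretory protein gene (0.74). Those most like Elavl4 were Clk3, a kinase of splicing factors (0.91), Zfp451 (0.86), the nuclear receptor gene Nr4a1 (0.84), Zc2hc1a (0.83) and Ube3b (0.82). Over the 27 NBL cells alone, Celf3 was closest to Map7d1 (0.96), the transcription factor gene Etv1 (0.81), Mtor (0.80), Cdc27, a subunit of the anaphase-promoting complex (0.78), and Tcf20 (0.78). Elavl4 was closest to Scamp1 (0.97), Bex2 (0.97), Zfp57 (0.96), Clk3 (0.96) and the RNA-binding protein gene G3bp2 (0.96). Within blocks of NBL the r of these 5 genes with Elavl4 was 0.82 to 0.87. The r with Celf3 was 0.95 for Map7d1, 0.77 for Etv1, 0.75 for Cdc27, 0.68 for Tcf20 and 0.58 for Mtor. The NBL cell at title number 19 had an Elavl4 level of 12.91 in a block with a mean of 3.88, and r without it was not computed. For the genes named over all populations, r within blocks was 0.21 (Scg5) to 0.51 (Fam92a) with Celf3, and with Elavl4 it was 0.58 for Clk3, 0.55 for Zfp451, 0.15 for Nr4a1, 0.08 for Zc2hc1a and -0.07 for Ube3b. Map7d1 was present in 22 NBL cells, at 8.47 in NBL, 1.84 in OligNBL and 0.18 in NB, and Clk3 was present in 11, at 5.04 in NBL, 0.73 in OligNBL and 0.00023 in NB. Cells that share a block share many genes, so likeness across cells is a description of these cells, and the order depends on the measure: by Spearman's rho 2 of the 5 genes for Celf3 and 0 of the 5 for Elavl4 stayed among the first 5 over all cells.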

How the data were processed

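Sorted cells were sequenced 1 by 1 by SMART-Seq2. The submitters' processing notes name kallisto, limma and GRCm38 (versions not given in the sources used here). Although named as estimated counts, the deposited values are a quantile-normalized signal (8 highest values equal in all cells), so no count model was used. Celf3 and Elavl4 and the gene lists were chosen with earlier results of these data known. Levels are mean log2(value + 1), and differences of low genes come out too small on this scale. A gene counts as detected above its cell's lowest value: in 1 NB cell every gene is above 0. Presence is rank 500 or better. Named genes were the members, measured Celf and Elavl genes, list genes with the largest differences, nearest genes in rank, the 5 most correlated genes and markers; the markers by block, the likeness of cells and of genes within blocks were added after seeing values. The code for differences was run on levels permuted over cells with 200 genes shifted by 3. This checks the arithmetic only, not the differences reported. No cell was left out of the levels, and doublets were not called. Alternatives covered pseudocount, weighting, cells, blocks and detection. Software was Python 3.11.15 with matplotlib 3.10.9, scipy 1.17.1, pandas 2.3.3 and numpy 2.4.6.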

Additional observations from a re-analysis of the deposited data

How the results depend on the processing

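No paired analysis was possible because the labels pair no cells between populations and no result comes from a test. With 1 sample per population, precision is limited by the cells, and depth cannot be read from the values. Over alternatives on the log2 scale Celf3 in NBL minus NB ran from 5.61 to 10.96 and in OligNBL minus NBL from -7.14 to -4.38. Elavl4 ran from 1.75 to 6.45 and from -5.40 to -1.06 in those comparisons, the ends nearest 0 being without NBL title numbers 25 to 32. With a pseudocount of 10 the Celf3 difference was 1.39 for OligNBL minus OL and 1.10 for OligNBL minus NB. Over cells' medians the Elavl4 differences were 2.29 and -2.29 for NBL minus NB and OligNBL minus NBL. Presence moved with its definition: among the 250 highest genes Celf3 was in 15% of OligNBL and 0% of OL cells, and Elavl4 in 0% of OligNBL and O cells. Among the 1000 highest, Celf3 was in 71.1% of OligNBL, 100% of NBL and 14.3% of O cells and Elavl4 in 68.2% of NBL cells, over cells with at least 1000 detected genes. Counted as detected, Celf3 was in 80% of OligNBL cells, Elavl4 in 37.5% of OligNBL, 63% of NBL and 27.6% of O cells, and both together in 32.5% of OligNBL and 63% of NBL cells. Among the 13 RNA-binding genes a pseudocount of 10 gave 4 higher in OligNBL minus OL, 5 higher in OligNBL minus NB, 1 higher and 0 lower in OL minus O and 1 higher in O minus NB. A difference of at least 2 gave 5 higher and 0 lower in OligNBL minus NB, 1 higher and 0 lower in OL minus O and 1 higher in O minus NB. With a minimum mean value (5 parts in 1e+06 of the column total) in either population, 1 was lower in OL minus O. Of 324 alternatives, 295 counted as the same by the rule set for each kind of result. For a level the rule was a shift no larger than the larger SD between cells. That margin is wide, and the Elavl4 differences of 1.75 and -1.06 given above fall within it. For presence the rule was the counting interval, and for counts of list genes a limit on their ratio. Celf3 in O minus NB ran from -0.64 to 0.08 and was above 0 without the 2 highest NB cells, an alternative added after seeing the data, and 0.07 in cells with at least 1000 detected genes. The Elavl4 target list had 1 measured gene and gave no summary.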
